A study of Mus musculus with 62 samples.

Results

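Mice carrying cachectic melanoma cells (CAC) were compared late and early in the course, with brown adipose tissue of 8 weeks after injection set against that of 2 weeks. The comparison rests on 7 CAC libraries of 8 weeks and 5 CAC libraries of 2 weeks, 12 of the 62 libraries in the series, and they were chosen by the arm and week in their labels. The other groups served only as background: CAC at 4 and 6 weeks, mice given non-cachectic melanoma cells (NCAC) and mock-injected mice (Con), with 5 libraries each. All mice were female, their stated age was 2 months whatever the week, and no genetic change or drug treatment was named for any group. The sample labels give the strain as C57BL/6J, whereas the text for the series as a whole speaks of NCI Ath/nude mice, so the immune cells that the hosts had are uncertain. Libraries were described as biological replicates, and nothing in the labels says that tissue was pooled. Within CAC alone, time since injection, tumour growth and the age of the mouse cannot be told apart. Values are TPM, a level scaled for transcript length and to a fixed total per library. No read totals can be had from TPM, so sequencing depth is unknown.

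Brown adipose tissue burns fatty acids to make heat. Noradrenaline from sympathetic nerves acts on the beta-3 adrenergic receptor (Adrb3), cyclic AMP and protein kinase A then release fatty acids from lipid droplets, and uncoupling protein 1 (Ucp1) lets protons back across the inner mitochondrial membrane without ATP being made. Cachexia is a wasting of fat and muscle that accompanies many tumours, and cytokines of the IL-6 family and glucocorticoids are among the signals known to act in it. IL-6 family cytokines signal through STAT3, which in the liver turns on acute phase genes for plasma proteins such as haptoglobin (Hp), serum amyloid A and the serine protease inhibitors of the Serpina3 group. Glucocorticoids act on a nuclear receptor and raise genes such as Fkbp5, Tsc22d3 and Per1.

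One CAC library of 8 weeks, library 3, stood apart from its group. On the first principal component of the 12 libraries, which held 42.3% of the variance, it lay at -22.3, within the span of the 2 week libraries (-19.0 to -36.4), while the other 6 libraries of 8 weeks lay between 20.7 and 34.1. It was kept in all values below, and the log2 change without it is given for the genes described library by library in which it lay among the 2 week libraries. Transcripts of the mitochondrial genome took 50.8% ± 3.67 of TPM at 8 weeks (SD, n = 7) and 56.2% ± 1.31 at 2 weeks (n = 5), with an exact 2-sided permutation p of 0.0101 (adjusted p = 0.0253 over 5 library measures). That adjusted p was 0.0530 without library 2 of 2 weeks. Because TPM has a fixed total, a smaller mitochondrial share lifts the other genes, so calls are also given after median-of-ratios rescaling of the libraries. The summed level of 17 skeletal muscle genes was 2776 ± 1233 TPM at 8 weeks and 7623 ± 6120 TPM at 2 weeks (adjusted p = 0.0337 by the same exact test). It ran from 844 to 4103 TPM at 8 weeks and from 1631 to 17678 TPM at 2 weeks, the highest being library 1 of 2 weeks. Without that library the difference was -2333 TPM (adjusted p = 0.126), against -4847 TPM with it, and 9 of the 12 fits that left out a single CAC library ended this call. Brown fat identity genes were present throughout, with Ucp1 at 1639.8 TPM or more and Cidea at 1523 TPM or more in all 12 libraries, and the melanocyte gene Tyr was at 0 in all of them. The 7 melanocyte markers summed to 3.67 to 9.66 TPM at 8 weeks and 3.96 to 6.82 TPM at 2 weeks, and Pmel reached 2.48 TPM at 8 weeks and 0.778 TPM at 2 weeks.

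**Figure D1:**
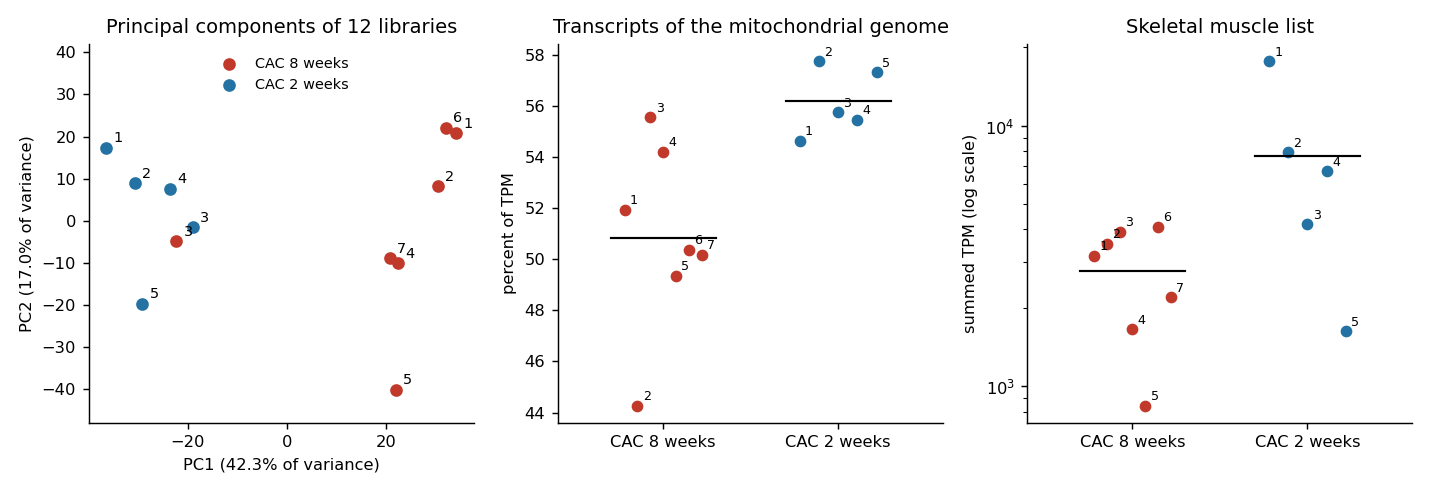
Principal components 1 and 2 of the 12 CAC libraries (log2(TPM + 1)), the percent of TPM from the mitochondrial genome and the summed TPM of 17 skeletal muscle genes on a log axis, with 8 weeks beside 2 weeks, library numbers beside the points and lines at the means. Library 3 of 8 weeks sits among the 2 week libraries on component 1, at -22.3, and library 1 of 2 weeks has the highest muscle sum, 17678 TPM.

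Of 12581 genes tested, 1882 were higher and 699 lower at 8 weeks than at 2 weeks in CAC (limma on log2(TPM + 1), Benjamini-Hochberg adjusted p under 0.05). These are 15% and 5.56% of the genes tested, 20.5% together, and 4295 genes had an unadjusted p under 0.05. A log2 change beyond 1 was reached by 314 of the higher and 97 of the lower genes. The median change of all genes was 0.08 on the log2 scale, and 0.00 after rescaling. After rescaling, 1675 genes (13.3%) were higher and 1457 (11.6%) lower, so rises made up 53.5% of the calls, against 72.9% on TPM, 48.3% after quantile normalization and 32.8% after removing mitochondrial transcripts. Of the genes called on TPM, 1625 of those higher and 696 of those lower were called the same way on the rescaled values. Without library 3 of 8 weeks, 2959 genes (23.5%) were higher and 864 (6.87%) lower, including 1881 and 688 of the genes called with it. Without library 1 of 2 weeks, 1496 genes were higher and 420 lower, the fewest lower calls with any single library left out.

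The same span was measured in the other arms. In Con, 4 of 12581 genes (0.0318%) changed from the same test, all lower at 8 weeks, namely Tie1 (log2 change -0.71), Cisd3 (-0.54), Pik3r6 (-0.48) and Dhodh (-0.39), with adjusted p between 0.0458 and 0.0494. These were named because the count is small. In NCAC, limma called 0 genes (0%). Unadjusted p was under 0.05 for 2553 genes in Con and 492 in NCAC. The Con count rose to 207 without library 2 of Con at 8 weeks and to 1299 when only the Con groups set the spread, so it does not show that Con stayed unchanged. The change in CAC exceeded that in Con for 1278 genes (10.2%) and fell below it for 179 (1.42%), by a test of the difference itself. That split depends on the scaling, with 486 above and 397 below after rescaling, and 265 above and 833 below once mitochondrial transcripts were removed.

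The highest rises and the deepest falls were chosen by rule, as the 12 largest log2 changes each way among called genes that averaged 5 TPM or more in their higher week. The promoters of the first 3 of each are printed because these are the genes on which the contrast turns most. They are RefSeq sequences on GRCm38.p6, the assembly also known as mm10, from 250 bases before to 50 after the start site, 5′ to 3′ along the gene's strand. In the 3 genes that rose, capitals mark TTCNNNGAA, the core that STAT proteins bind, and TGTNCT, the half-site of the glucocorticoid receptor. In the 3 genes that fell, capitals mark CANNTG, the E-box bound by factors such as those of muscle. Each was searched on both strands.

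Itih4, chr14:30886226-30886525, plus strand, 8 weeks higher:
Itih4: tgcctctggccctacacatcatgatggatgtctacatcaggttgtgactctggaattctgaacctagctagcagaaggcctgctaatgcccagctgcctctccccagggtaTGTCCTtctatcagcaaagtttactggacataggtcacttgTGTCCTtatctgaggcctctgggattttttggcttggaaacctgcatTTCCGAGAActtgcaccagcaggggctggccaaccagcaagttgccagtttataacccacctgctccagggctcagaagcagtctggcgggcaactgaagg
Cyp2b10, chr7:25897408-25897707, plus strand, 8 weeks higher:
Cyp2b10: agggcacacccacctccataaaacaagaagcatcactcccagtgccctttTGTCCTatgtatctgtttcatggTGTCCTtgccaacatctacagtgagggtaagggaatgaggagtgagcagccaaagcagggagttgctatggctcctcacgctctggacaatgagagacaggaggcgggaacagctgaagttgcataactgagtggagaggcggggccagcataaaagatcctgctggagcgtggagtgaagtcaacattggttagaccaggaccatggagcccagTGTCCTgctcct
Cxcl13, chr5:95956689-95956988, plus strand, 8 weeks higher:
Cxcl13: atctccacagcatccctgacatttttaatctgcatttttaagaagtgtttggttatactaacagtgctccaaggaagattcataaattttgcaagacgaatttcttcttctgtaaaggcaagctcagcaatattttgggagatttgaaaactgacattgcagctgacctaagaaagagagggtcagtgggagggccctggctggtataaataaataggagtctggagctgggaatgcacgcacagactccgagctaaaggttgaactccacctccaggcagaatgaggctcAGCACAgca
Nnat, chr2:157559828-157560127, plus strand, 8 weeks lower:
Nnat: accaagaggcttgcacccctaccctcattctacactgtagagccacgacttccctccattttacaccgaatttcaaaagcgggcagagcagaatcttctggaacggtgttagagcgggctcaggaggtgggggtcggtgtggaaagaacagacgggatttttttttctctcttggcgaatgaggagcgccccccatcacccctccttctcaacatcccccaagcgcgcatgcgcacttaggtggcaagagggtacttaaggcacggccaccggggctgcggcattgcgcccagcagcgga
Casq1, chr1:172219846-172220145, minus strand, 8 weeks lower:
Casq1: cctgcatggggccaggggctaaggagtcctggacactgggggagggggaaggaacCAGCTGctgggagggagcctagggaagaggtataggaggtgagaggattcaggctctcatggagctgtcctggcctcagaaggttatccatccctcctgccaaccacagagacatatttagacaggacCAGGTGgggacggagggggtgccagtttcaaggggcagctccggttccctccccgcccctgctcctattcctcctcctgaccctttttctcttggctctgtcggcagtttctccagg
Pvalb, chr15:78206351-78206650, minus strand, 8 weeks lower, the first of 2 promoters listed for it:
Pvalb: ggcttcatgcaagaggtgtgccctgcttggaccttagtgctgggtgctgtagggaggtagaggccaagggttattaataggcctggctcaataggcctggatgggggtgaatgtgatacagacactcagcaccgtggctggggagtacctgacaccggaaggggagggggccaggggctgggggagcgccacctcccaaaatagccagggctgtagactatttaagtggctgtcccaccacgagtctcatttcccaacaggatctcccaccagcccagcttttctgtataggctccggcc

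The Itih4 window holds 1 STAT core, beginning at base -51 from the start site, and 2 glucocorticoid receptor half-sites at -139 and -98. Cyp2b10 holds 3 such half-sites, at -200, -177 and 39, and Cxcl13 has 1 on the opposite strand at 42. Among 32851 RefSeq promoters of the same length, 8.30% hold the STAT core and 50.5% the half-site. Casq1 holds E-boxes at -195 and -67, whereas the Nnat and Pvalb windows hold none, and 72.3% of all promoters hold at least 1. These matches describe letters, not binding.

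Itih4, a plasma protein of the acute phase response, had the highest rise. It stood at 880.2, 1176, 41.9, 1154, 1069, 709 and 1012 TPM in libraries 1 to 7 of 8 weeks, against 0.902, 3.21, 31.5, 12.1 and 1.67 TPM in libraries 1 to 5 of 2 weeks. Library 3 was the lowest of the 8 week group and lay just above the highest 2 week library, so the groups did not overlap. The log2 change was 6.67 (SE 0.62, adjusted p = 1.86e-11), and 7.32 without library 3. The gene lies at chr14:30886476-30902353 on mm10. The protease inhibitors Serpina3n and Serpina3k, also of the acute phase, were among the 12. Serpina3n was at 795, 905, 42.4, 316, 364, 711 and 427 TPM at 8 weeks and at 34.1, 47.6, 62.4, 42.5 and 19.7 TPM at 2 weeks (log2 change 3.25, SE 0.48, adjusted p = 1.83e-06, and 3.77 without library 3). Only library 3 reached down into the 2 week range. Serpina3k, with a mean of 44.2 ± 55.1 TPM at 8 weeks and 0.769 ± 0.50 TPM at 2 weeks, did not overlap between weeks (log2 change 3.78, SE 0.55, adjusted p = 1.01e-06). The genes of the Serpina3 cluster are near-identical copies and Serpina3k overlaps Serpina3m in the annotation, so how reads were divided among them is uncertain.

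Metal-binding genes rose with them. Metallothionein 2 (Mt2), a small protein that binds zinc and copper, was at 4708, 3327, 249.8, 2374, 1082, 3420.3 and 2618 TPM at 8 weeks and at 81.3, 66.3, 224, 70.1 and 83.2 TPM at 2 weeks. Every 8 week library lay above every 2 week library, again with library 3 lowest (log2 change 4.33, SE 0.48, adjusted p = 2.7e-09). Slc39a14, the transporter ZIP14 that brings zinc and iron into cells, was at 203, 63.1, 9.98, 97.5, 56.4, 108 and 60.5 TPM at 8 weeks and at 4.30, 5.29, 13.1, 5.98 and 3.94 TPM at 2 weeks. Library 3 fell inside the 2 week range and the other 6 above it (log2 change 3.25, SE 0.41, adjusted p = 7.84e-08, and 3.68 without library 3).

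Immune genes formed another part of the 12. Cxcl13, a chemokine that draws B cells through the receptor CXCR5, was at 221, 151, 5.52, 36.9, 86.7, 281 and 89.5 TPM at 8 weeks and at 1.26, 2.30, 4.70, 2.30 and 1.54 TPM at 2 weeks (log2 change 4.60, SE 0.60, adjusted p = 1.04e-07). The weeks did not overlap. Complement component C4b was at 633, 686, 181, 503, 720.4, 717 and 823 TPM at 8 weeks and at 25.8, 71.1, 131, 90.5 and 23.8 TPM at 2 weeks, with no overlap (log2 change 3.31, SE 0.34, adjusted p = 3.68e-10). Its near-copy C4a rose by 3.00 on the log2 scale. Prtn3, proteinase 3, a serine protease best known from neutrophil granules, was at 23.0, 25.7, 4.60, 19.2, 29.8, 23.2 and 29.9 TPM at 8 weeks and at 0.737, 1.17, 2.66, 1.22 and 0.414 TPM at 2 weeks (log2 change 3.29, SE 0.30, adjusted p = 1.59e-11). All 8 week values were above all 2 week values. Prtn3 overlaps Plppr3 on the other strand, and whether counting used strand is not given in the sources used here.

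Fkbp5, a co-chaperone that binds the glucocorticoid receptor and is itself a target of it, was at 131, 96.4, 5.81, 81.8, 56.3, 150.4 and 65.9 TPM at 8 weeks and at 4.30, 5.87, 5.91, 3.50 and 1.21 TPM at 2 weeks. Library 3 lay among the 2 week libraries, and the other 6 far above them (log2 change 3.73, SE 0.66, adjusted p = 3.81e-05, and 4.27 without library 3). Cyp2b10, a drug-metabolising cytochrome P450 best known from liver, was at 585, 156, 5.47, 189, 313, 632 and 127 TPM at 8 weeks and at 1.73, 7.602, 4.41, 8.74 and 2.06 TPM at 2 weeks, with the same arrangement (log2 change 4.96, SE 0.96, adjusted p = 0.000163, and 5.73 without library 3). The last of the 12 were the lipocalin Mup17 and Mfsd2a, a transporter of lysophosphatidylcholine. Mup17 ran from 49.2 to 568 TPM at 8 weeks and from 2.59 to 29.8 TPM at 2 weeks without overlap (log2 change 3.64, SE 0.89, adjusted p = 0.00246), and Mup genes are near-identical copies. Mfsd2a ran from 10.7 to 191 TPM at 8 weeks and from 1.51 to 37.2 TPM at 2 weeks and overlapped (log2 change 3.46, SE 0.98, adjusted p = 0.00916).

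**Figure D2:**
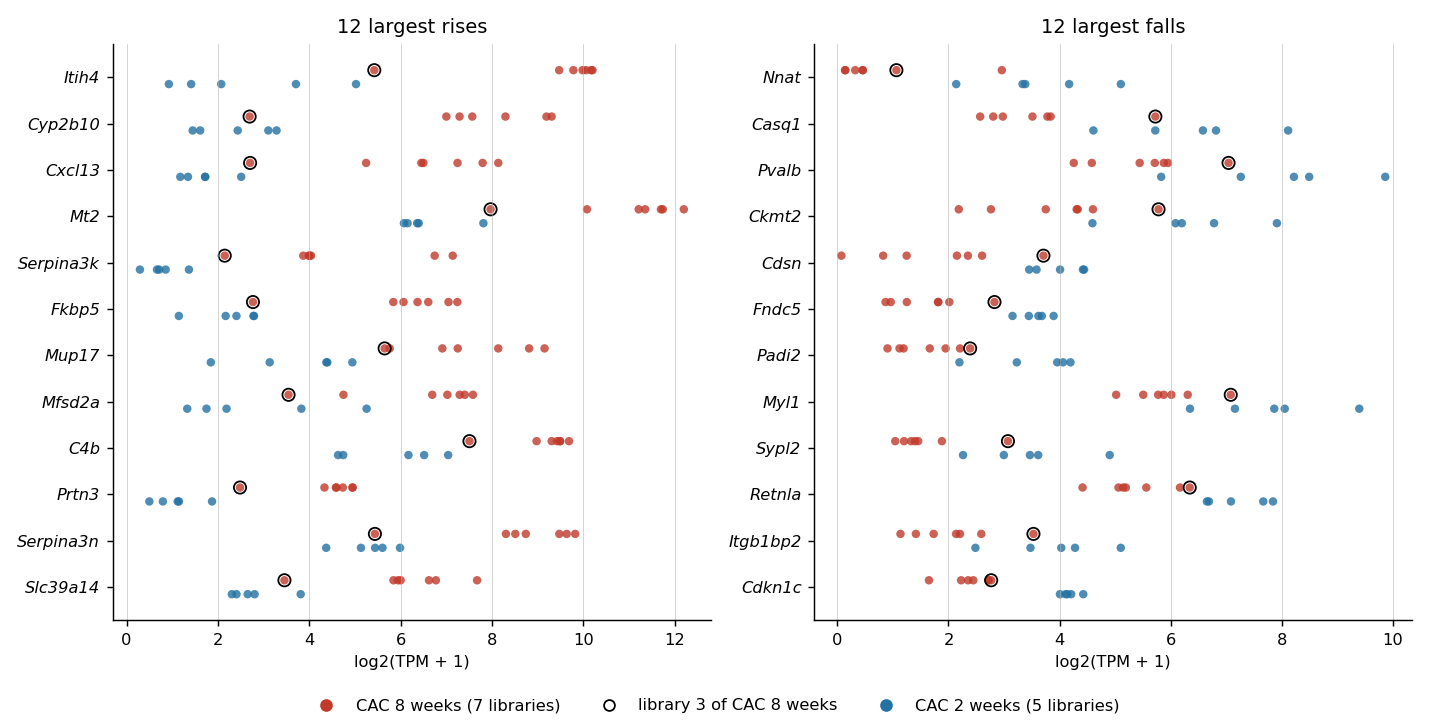
log2(TPM + 1) of the 12 highest rises and the 12 deepest falls in each CAC library, with 8 weeks above 2 weeks for each gene and a ring around library 3 of 8 weeks. For 7 of the 12 rises and 3 of the 12 falls the weeks do not overlap, and library 3 is the lowest 8 week library for all 12 rises.

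Cdkn1c, the cell cycle inhibitor p57, was the steadiest of the 12 falls. It was at 5.59, 4.11, 5.82, 2.13, 4.45, 5.58 and 3.68 TPM at 8 weeks and at 16.6, 20.5, 15.1, 17.5 and 16.2 TPM at 2 weeks. No 8 week library reached the 2 week range, library 3 included (log2 change -1.77, SE 0.21, adjusted p = 7.62e-09). Retnla, a secreted resistin-like protein of macrophages and fat, was at 35.6, 70.9, 80.2, 32.4, 20.3, 34.3 and 46.2 TPM at 8 weeks and at 228, 202, 99.6, 135 and 102 TPM at 2 weeks, without overlap (log2 change -1.78, SE 0.42, adjusted p = 0.00205). Fndc5, whose membrane protein is the source of the hormone irisin, was at 3.04, 2.51, 6.10, 1.38, 0.946, 2.52 and 0.824 TPM at 8 weeks and at 13.9, 9.90, 11.8, 11.3 and 7.89 TPM at 2 weeks. These groups were also apart (log2 change -1.91, SE 0.30, adjusted p = 6.53e-06). Nnat, neuronatin, a small protein of the endoplasmic reticulum found in nerve and fat cells, was at 0.373, 6.78, 1.09, 0.372, 0.10, 0.104 and 0.249 TPM at 8 weeks and at 9.43, 33.4, 9.07, 3.40 and 17.0 TPM at 2 weeks. Library 2 of 8 weeks overlapped the 2 week range and the other 6 did not (log2 change -2.83, SE 0.57, adjusted p = 0.000297). Nnat lies inside Blcap, which is read on the other strand. Cdsn, corneodesmosin, a protein of the skin surface, averaged 3.84 ± 4.07 TPM at 8 weeks and 15.4 ± 5.06 TPM at 2 weeks (log2 change -2.13, SE 0.51, adjusted p = 0.00208).

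Genes of skeletal muscle filled much of the rest of the 12 falls. Casq1, the calcium store of fast muscle fibres, was at 4.94, 12.7, 51.9, 13.3, 5.99, 6.88 and 10.4 TPM at 8 weeks and at 276, 112, 51.8, 94.7 and 23.4 TPM at 2 weeks. Library 3 of 8 weeks lay within the 2 week range and the other 6 below it (log2 change -2.77, SE 0.74, adjusted p = 0.00601, and -3.12 without library 3). Pvalb, a calcium buffer of fast fibres, averaged 54.9 ± 37.3 TPM at 8 weeks and 359 ± 341 TPM at 2 weeks (log2 change -2.38, adjusted p = 0.0250). Ckmt2, the creatine kinase of muscle mitochondria, averaged 19.6 ± 16.8 TPM at 8 weeks and 102 ± 82.7 TPM at 2 weeks (-2.36, adjusted p = 0.0334). Both overlapped between weeks. Myl1, a myosin light chain, changed by -1.82 (adjusted p = 0.00975), Sypl2 of the muscle triad by -1.82 (adjusted p = 0.00300) and Itgb1bp2, melusin, by -1.77 (adjusted p = 0.0342). Padi2, which turns arginine in proteins into citrulline, changed by -1.90 (adjusted p = 0.00988). Library 1 of 2 weeks had the highest value of each of these 7 genes. Without it the calls of Pvalb (adjusted p = 0.110), Ckmt2 (0.117), Myl1 (0.0652) and Itgb1bp2 (0.120) were lost. Leaving out library 2 of 2 weeks also ended the calls of Pvalb (0.0620), Ckmt2 (0.0747) and Itgb1bp2 (0.0784), and so did leaving out library 5 of 8 weeks (0.0505, 0.0727 and 0.0653). Of 17 skeletal muscle genes, 3 fell and 0 rose, with a median log2 change of -1.45, and 1 fell without library 1 of 2 weeks and 5 without library 3 of 8 weeks. In Con the median over the same genes was 1.48, from sums of 1087 to 9391 TPM at 8 weeks and 140.2 to 2944 TPM at 2 weeks, and the part of muscle RNA in the falls was not tested.

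For 10 of the 12 rises the change in CAC exceeded that in Con, and for 11 of the 12 falls it lay below, by the test of the difference, beside 10.2% above and 1.42% below among all genes tested. These genes were chosen for the size of their CAC change, which is part of the difference, so the counts follow largely from the choice and are given as a description. Itih4 differed by 6.69 (adjusted p = 4.54e-06), with a mean of 1.33 TPM in Con at 8 weeks and 1.39 TPM in Con at 2 weeks. Mt2 differed by 4.42 (adjusted p = 8.64e-05), Serpina3k by 4.34 (0.000617), Cxcl13 by 4.09 (0.00226), Fkbp5 by 3.68 (0.0114) and Serpina3n by 3.59 (0.00131). Slc39a14 differed by 3.00 (0.00162), Prtn3 by 2.70 (0.000102) and C4b by 2.59 (0.00111). Cyp2b10 differed by 4.43 (0.0341), a call that was lost without any of 7 single libraries, among them library 1 of Con at 2 weeks (0.0661). The differences of Mup17 (2.98, adjusted p = 0.112) and Mfsd2a (2.00, adjusted p = 0.337) did not pass, and neither did that of Cdsn (-1.203, adjusted p = 0.263). Mfsd2a averaged 21.0 ± 27.0 TPM in Con at 8 weeks and 5.74 ± 7.62 TPM in Con at 2 weeks.

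Among the falls, several muscle genes had Con means that lay the other way. Casq1 averaged 43.7 ± 52.1 TPM in Con at 8 weeks and 17.5 ± 17.4 TPM in Con at 2 weeks, and the difference between the CAC and Con changes was -4.00 (adjusted p = 0.0147). The differences were -3.84 for Ckmt2 (0.0311), -3.80 for Pvalb (0.0269), -3.02 for Padi2 (0.0117), -3.00 for Itgb1bp2 (0.0260), -2.67 for Sypl2 (0.00770) and -2.47 for Myl1 (0.0306). Those of Ckmt2 (0.0702), Pvalb (0.0606), Itgb1bp2 (0.0625) and Myl1 (0.0716) were lost without library 4 of Con at 8 weeks. They were also lost without library 1 of CAC at 2 weeks (Ckmt2 0.0723, Pvalb 0.0681, Itgb1bp2 0.0621, Myl1 0.0815). Among the other falls, the differences were -3.25 for Nnat (0.0102), -2.99 for Retnla (0.00195), -2.59 for Fndc5 (0.000197) and -1.21 for Cdkn1c (0.00804).

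**Figure D3:**
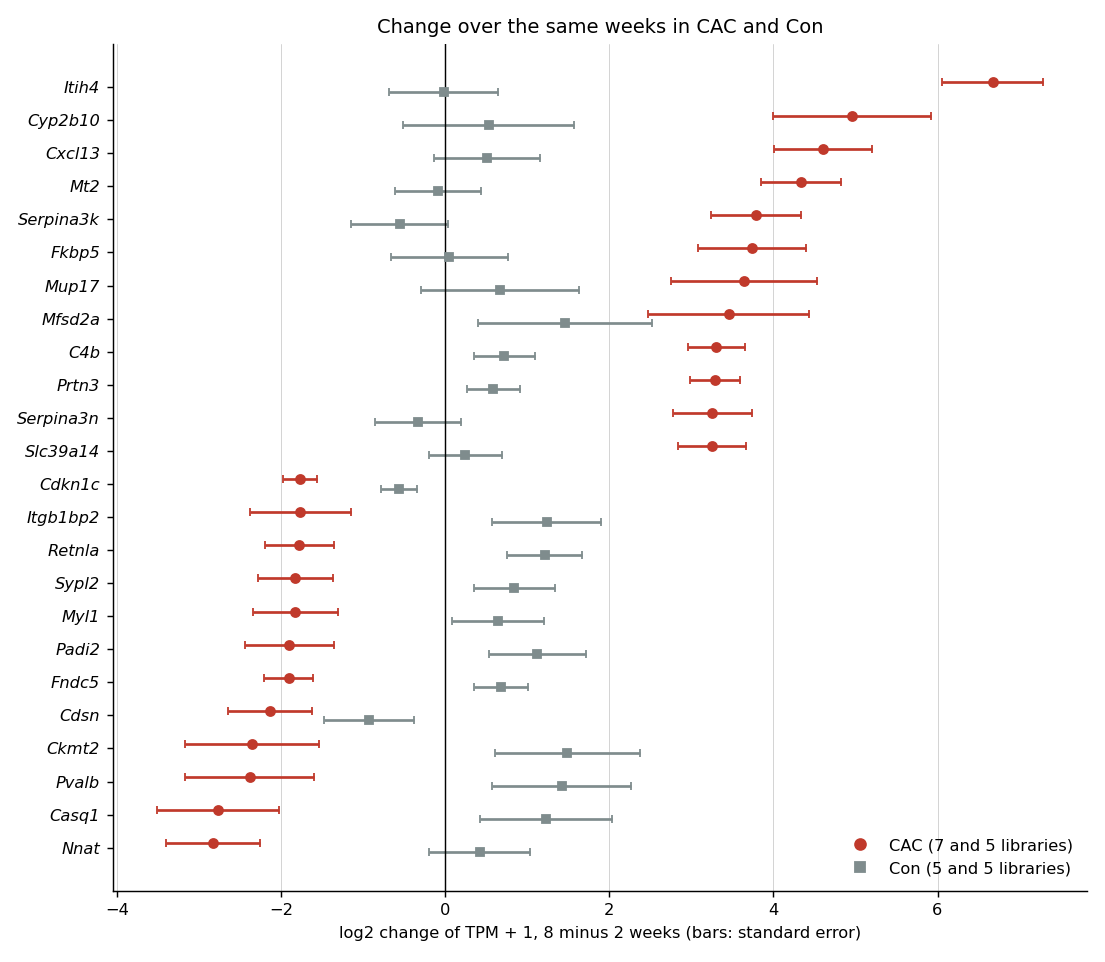
log2 change at 8 weeks against 2 weeks with its standard error, in CAC above Con, for the 12 highest rises and 12 deepest falls of CAC. The Con changes lie near 0 for Itih4 (-0.02), Mt2 (-0.09) and Fkbp5 (0.05), while those of Casq1 (1.23) and Ckmt2 (1.49) lie on the other side of 0 from CAC.

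The CAC libraries of 4 and 6 weeks show how the ends of the course were joined. Group means ran in the order of the weeks for all 12 rises and for 9 of the 12 falls. Itih4 averaged 9.88, 235, 362 and 863 TPM at 2, 4, 6 and 8 weeks, and Mt2 averaged 105, 665, 1279 and 2539.7 TPM. At 4 weeks Itih4 was at 812 TPM in library 2 and at 296 TPM in library 4, and between 16.5 and 28.1 TPM in the other 3. Haptoglobin (Hp), the plasma protein that binds free haemoglobin, averaged 540.1, 2903, 5580.3 and 5951 TPM over the same weeks, so its mean was near its final level by 6 weeks. C4b averaged 68.4, 205, 294 and 609 TPM, and Fkbp5 averaged 4.16, 33.8, 37.2 and 84.0 TPM. Cdkn1c averaged 17.2, 11.7, 6.50 and 4.48 TPM, and Nnat averaged 14.5, 10.1, 2.08 and 1.30 TPM. Ucp1 did not follow the weeks. Its means were 5198, 5192, 6579 and 3061 TPM, and all 5 libraries of 6 weeks (5135 to 8205 TPM) lay above all 7 of 8 weeks (1639.8 to 4659 TPM). The steps between neighbouring weeks were not tested.

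**Figure D4:**
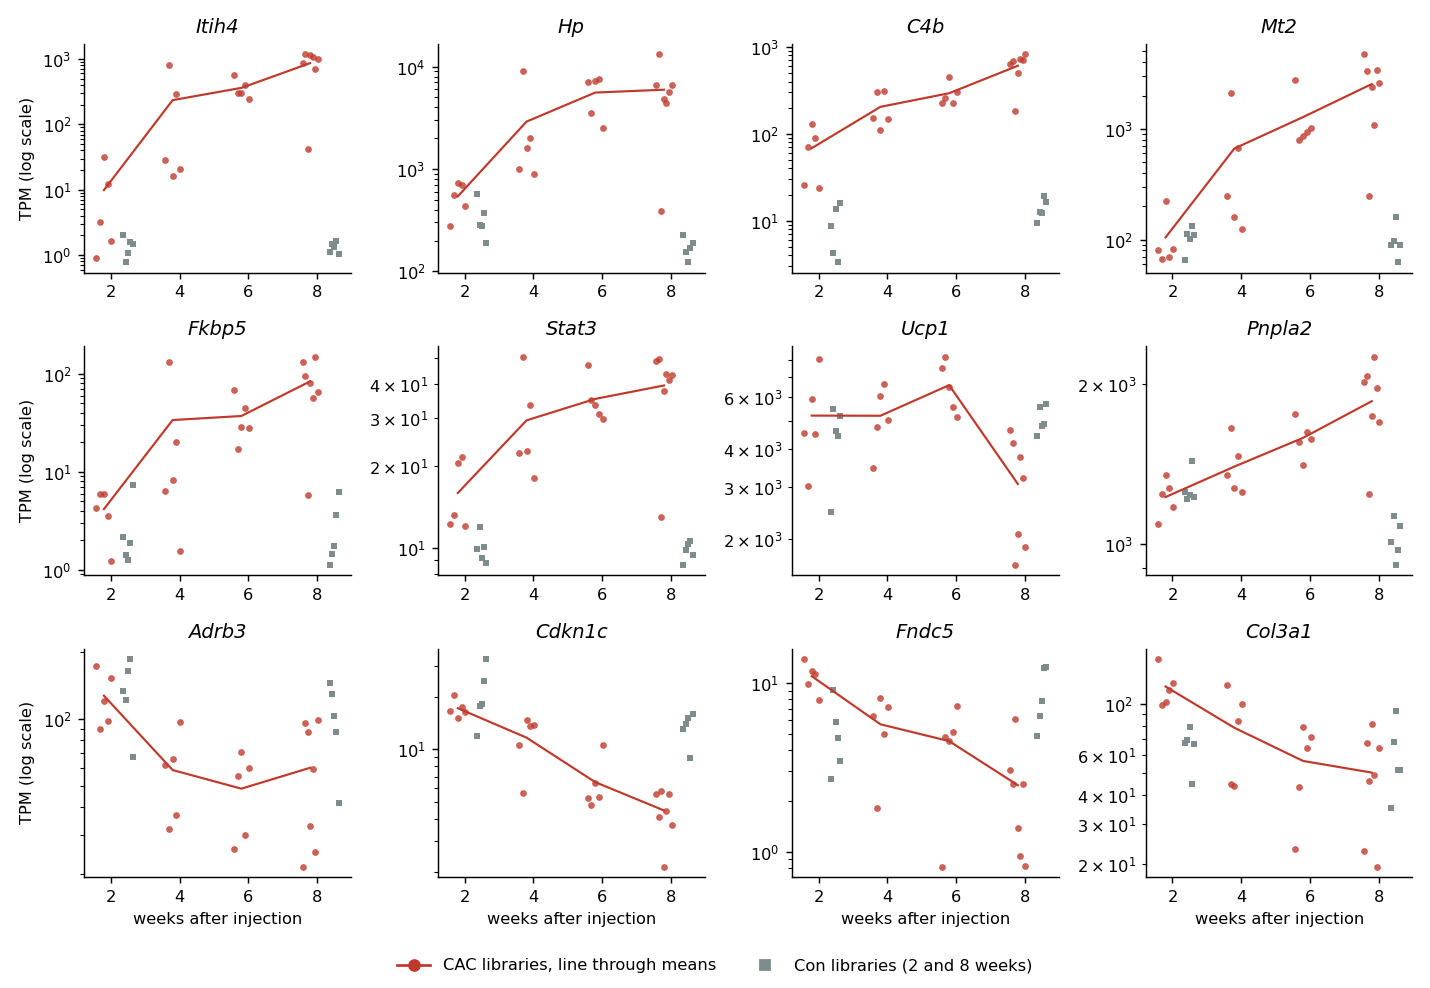
TPM on a log axis at 2, 4, 6 and 8 weeks for 12 genes, with CAC libraries as points, a line through the CAC means, and Con libraries of 2 and 8 weeks as squares. Itih4, Hp, C4b, Mt2, Fkbp5 and Stat3 climb over the weeks in CAC, whereas Ucp1 is highest at 6 weeks, with a mean of 6579 TPM, and lowest at 8 weeks, with 3061 TPM.

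In bulk tissue, fewer cells of a type and less RNA per cell cannot be told apart, and this applies to every list below. Gene lists are described by how many members rose and fell, beside 15% higher and 5.56% lower among all genes tested. The median log2 change is also given, beside 0.08 for all genes. The shares of all genes were 13.3% higher and 11.6% lower after rescaling, and 23.5% and 6.87% without library 3 of 8 weeks. With mitochondrial transcripts removed they were 8.71% and 17.8%.

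The acute phase list had the highest median of all lists described here. Of its 23 genes 19 passed the filter on low values, and 18 of them rose and 0 fell, with a median of 2.06. Fga, Itih3 and Saa2 passed the filter only through the CAC libraries of 8 weeks, and 15 of the other 16 rose. Each of the 12 fits that left out a single CAC library also called 18. Hp was at 6581, 13174, 391, 4807, 4395, 5663 and 6644 TPM at 8 weeks and at 278, 558, 725, 701 and 438 TPM at 2 weeks. Library 3 lay inside the 2 week range and the other 6 above it (log2 change 3.07, SE 0.48, adjusted p = 5.05e-06, and 3.65 without library 3). Serum amyloid A3 (Saa3) was at 43.2, 30.4, 0.239, 19.2, 3.54, 39.3 and 5.40 TPM at 8 weeks and at 0, 0.163, 0.331, 0.759 and 0.318 TPM at 2 weeks (log2 change 3.24, adjusted p = 9.4e-07, and 3.79 without library 3). Lcn2, a lipocalin that binds bacterial iron carriers, averaged 28.4 ± 21.5 TPM at 8 weeks and 2.34 ± 1.86 TPM at 2 weeks (log2 change 2.79, adjusted p = 0.00416). The fibrinogen chain Fga rose by 2.61, the lipopolysaccharide-binding protein Lbp by 2.06, the copper oxidase ceruloplasmin (Cp) by 1.22 and the haem carrier Hpx by 1.16. Saa1 and Saa2, and Orm1 and Orm2, are near-identical pairs whose reads could be divided either way.

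Receptors and feedback genes of the IL-6 pathway moved the same way, with 13 of 18 higher, 0 lower and a median of 0.83. Stat3, the transcription factor of the pathway, was at 48.5, 49.2, 13.0, 37.6, 43.5, 41.3 and 43.3 TPM at 8 weeks and at 12.2, 13.3, 20.4, 21.6 and 12.03 TPM at 2 weeks. Library 3 again lay among the 2 week values (log2 change 1.21, SE 0.19, adjusted p = 5.72e-06, and 1.45 without library 3). Socs3, the inhibitor that STAT3 induces, averaged 14.6 ± 6.47 TPM at 8 weeks and 2.86 ± 1.19 TPM at 2 weeks (log2 change 1.93, adjusted p = 1.78e-07). The receptor genes Osmr (1.64), Il6ra (1.11), Lifr (0.73) and Il6st (0.50) rose, and so did Junb (1.72), Cebpd (1.61), Bcl3 (1.22) and the kinase Jak2 (0.43).

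Complement genes rose in 11 of 18 cases, with 0 lower and a median of 0.90. Besides C4b, Cfd, adipsin, the fat cell protease that starts the alternative pathway, averaged 7035 ± 2606 TPM at 8 weeks and 2862 ± 795 TPM at 2 weeks (log2 change 1.25, adjusted p = 0.00325). C3 rose by 1.05. Chemokines rose in 4 of 12 cases with a median of 0.25, and the other 3 beside Cxcl13 were Ccl8 (3.02), Ccl6 (1.79) and Ccl9 (1.595), which attract monocytes and macrophages.

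Macrophage markers rose alongside. Of 12 macrophage markers 9 rose and 0 fell, with a median of 0.90, and their sum was 261 to 649 TPM at 8 weeks and 179 to 270.4 TPM at 2 weeks. The scavenger receptor Cd163 averaged 21.5 ± 8.10 TPM at 8 weeks and 6.48 ± 2.23 TPM at 2 weeks (log2 change 1.52, adjusted p = 8.99e-05), the lipopolysaccharide co-receptor Cd14 rose by 1.56, and the C1q chains C1qa, C1qb and C1qc by 1.04, 1.10 and 0.99. The 10 neutrophil markers summed to 14.7 to 54.6 TPM at 8 weeks and 3.39 to 8.01 TPM at 2 weeks, without overlap. Only 4 of them passed the filter on low values, so no share of the list can be given, and the other 6 were too low to be tested. S100a9 rose by 1.89, S100a8 by 1.51, Retnlg by 1.34 and Csf3r by 0.85. Library 3 was the highest 8 week library for S100a9 (32.0 TPM, the rest 7.49 to 24.2 TPM). The same held for S100a8 (16.2 TPM, the rest 2.49 to 10.2 TPM). T and NK cell markers summed to 1.11 to 2.93 TPM at 8 weeks and 0.992 to 2.03 TPM at 2 weeks. Of 8 B cell markers 4 were tested and 2 fell, Cd79a (-0.50) and Ighd (-0.64), both calls being lost without library 4 of 2 weeks. Both were low, with Cd79a at 0.243 TPM at 8 weeks and 0.770 TPM at 2 weeks, and Ighd at 0.323 and 1.10 TPM. Ighm averaged 11.9 TPM at 8 weeks and 17.1 TPM at 2 weeks and was not called. The part of these cells in the complement, chemokine and acute phase counts was not tested.

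Interferon-stimulated genes rose in 4 of 20 cases (median 0.22) and genes of antigen presentation in 5 of 15 (median 0.34), with 0 lower in both. Among all genes 15% were higher. With mitochondrial transcripts removed, 1 interferon-stimulated gene was higher and 2 lower, while 4 genes of antigen presentation were higher and 0 lower. A fit of only the 2 CAC groups called 0 interferon-stimulated genes, and 6 of antigen presentation higher. H2-D1, a class I molecule, averaged 351 ± 158 TPM at 8 weeks and 128 ± 35.98 TPM at 2 weeks (log2 change 1.36, adjusted p = 0.00188). Its regulator Nlrc5 rose by 1.07 and beta-2 microglobulin (B2m) by 0.63. The interferon-stimulated calls of Irf7, Irf9 and Ifitm3 were lost without library 5 of 2 weeks (adjusted p = 0.211, 0.130 and 0.193), without library 2 of 8 weeks (0.0824, 0.0595 and 0.108) and without library 7 of 8 weeks (0.0857, 0.0797 and 0.0778), and with some other single libraries. The antigen presentation count was 3 without library 5 of 2 weeks, library 2 of 8 weeks or library 7 of 8 weeks.

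Metallothioneins and zinc genes rose in 5 of 7 cases, with 0 lower, in 4 after rescaling and in 3 without library 2 of 2 weeks. Mt1, the near-copy of Mt2, averaged 3415 ± 1961 TPM at 8 weeks and 339 ± 113 TPM at 2 weeks (log2 change 3.03, adjusted p = 6.85e-08). Mtf1, the zinc sensor that turns on metallothioneins, averaged 5.98 ± 1.78 TPM at 8 weeks and 3.55 ± 0.862 TPM at 2 weeks (log2 change 0.59, adjusted p = 0.0121, and 0.0553 without library 2 of 2 weeks). Iron genes rose in 5 of 14 cases, and after rescaling 5 were higher and 2 lower. Haem oxygenase 1 (Hmox1), which frees iron from haem, averaged 29.9 ± 14.1 TPM at 8 weeks and 9.78 ± 2.06 TPM at 2 weeks (log2 change 1.37, adjusted p = 0.000218), and ferritin light chain (Ftl1) rose by 0.52. Of 5 erythroid genes, limma called 0, and 0 had an unadjusted p under 0.05. The sum of the erythroid list was 103 to 26830.3 TPM at 8 weeks and 1143 to 2237 TPM at 2 weeks. The median log2 change of the 5 genes was -0.20, and -0.95 without library 3 of 8 weeks. Genes of antioxidant defence rose in 10 of 20 cases, with 0 lower and a median of 0.35. After quantile normalization 8 were higher and 2 lower, and with mitochondrial transcripts removed 7 were higher and 2 lower. Gclc, the enzyme that limits glutathione synthesis, rose by 0.61, and Srxn1 by 0.55. The count was 6 without library 5 of 2 weeks and 13 without library 3 of 8 weeks.

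Glucocorticoid response genes rose in 10 of 17 cases and fell in 3, with a median of 1.31. Ddit4, an inhibitor of mTORC1, averaged 69.0 ± 75.2 TPM at 8 weeks and 9.40 ± 4.78 TPM at 2 weeks (log2 change 2.19, adjusted p = 0.00209). Hsd11b1, which makes active glucocorticoid inside cells, rose by 1.79, Errfi1 by 1.66, Dusp1 by 1.31, Tsc22d3 by 1.27 and Klf9 by 0.59. The 3 that fell were Cdkn1c, Angptl4 (-1.01) and the receptor itself, Nr3c1 (-0.36). The count of falls was 1 in 5 of the 12 fits that left out a single CAC library, those without library 1, 4 or 5 of 2 weeks and without library 2 or 6 of 8 weeks. Lcn2 and Mt2 stand in this list and in those above, and they are known to answer to more than 1 signal.

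Clock genes went both ways, with 5 of 19 higher and 2 lower, and 3 were higher without library 5 of 2 weeks. Nfil3, a repressor that acts against Dbp, averaged 54.3 ± 26.8 TPM at 8 weeks and 9.38 ± 3.32 TPM at 2 weeks (log2 change 2.18, adjusted p = 0.00270). Per2 averaged 27.3 ± 9.37 TPM at 8 weeks and 7.81 ± 4.01 TPM at 2 weeks (log2 change 1.72, adjusted p = 0.00624), and Per1 rose by 1.43 (adjusted p = 0.0131). Nr1d1, the repressor REV-ERB alpha, fell by 1.36 (adjusted p = 0.0415), a call that 7 of 12 single left-out libraries ended, with adjusted p up to 0.133 without library 5 of 8 weeks. Arntl (-0.25, adjusted p = 0.723) and Dbp (-0.38, adjusted p = 0.566), which mark opposite times of day, did not pass. Arntl was at 14.9 TPM in library 5 of 8 weeks and between 0.583 and 1.99 TPM in the other 6 of that week. The hour of tissue collection is not given in the sources used here.

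**Figure D5:**
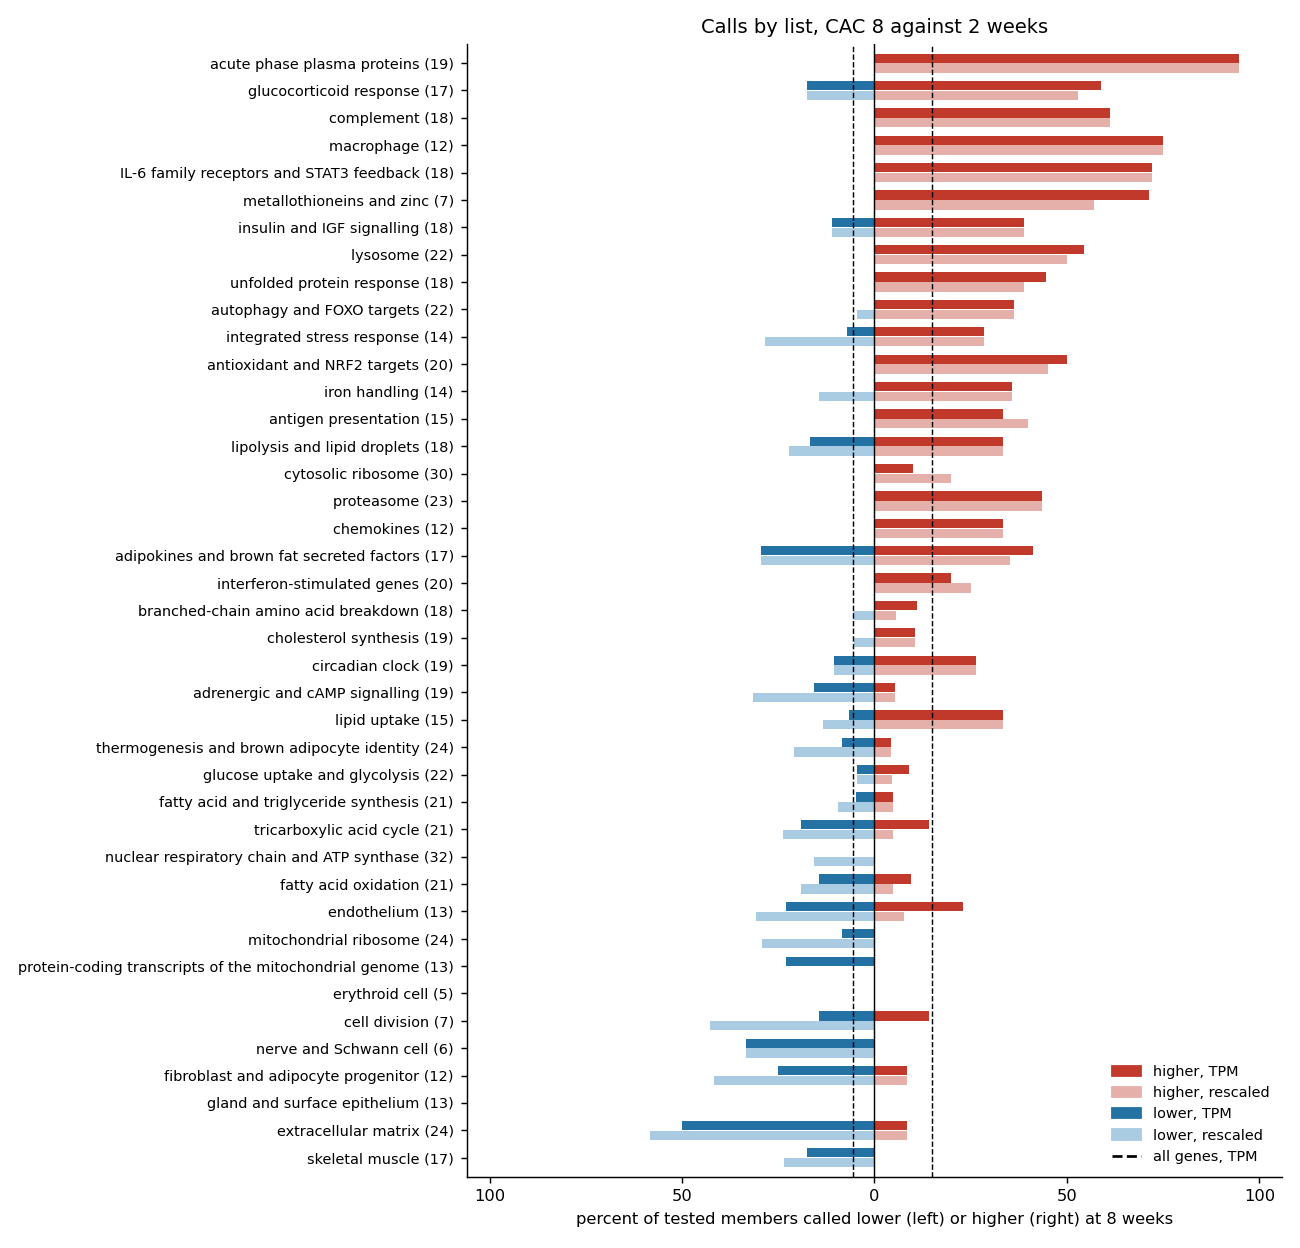
Percent of tested members called lower (left) and higher (right) at 8 weeks against 2 weeks in CAC, for lists with at least 5 tested members, dark on TPM and pale after rescaling, with dashed lines at the values of all genes tested, 15% higher and 5.56% lower. The acute phase list, with 18 of 19 higher, lies far above the dashed line for rises. Of its members, 3 passed the filter on low values only through the CAC libraries of 8 weeks, and 15 of the others rose. The extracellular matrix list, with 12 of 24 lower, lies far beyond the dashed line for falls.

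Thermogenesis and brown fat identity genes were mostly not called on TPM, with 1 of 24 higher, 2 lower and a median of 0.04, and after rescaling 1 higher and 5 lower. With mitochondrial transcripts removed 0 were higher and 8 lower (median -0.11), beside 8.71% higher and 17.8% lower among the 12568 genes then tested. Without library 3 of 8 weeks 4 were higher, and without library 5 of 8 weeks 4 were lower. Ucp1 was at 4659, 4214, 1639.8, 2077, 3759, 3198 and 1879 TPM at 8 weeks and at 4528, 3013, 5893, 4491 and 8067 TPM at 2 weeks. The weeks overlapped, with 4 libraries of 8 weeks inside the 2 week range and libraries 3, 4 and 7 below it. The log2 change was -0.79 (SE 0.25, adjusted p = 0.0209), and the call was lost without library 3 of 2 weeks (0.0535), library 5 of 2 weeks (0.104) or library 7 of 8 weeks (0.0540). Ppara, the fatty acid sensor that drives oxidation genes, averaged 28.7 ± 9.40 TPM at 8 weeks and 63.7 ± 15.2 TPM at 2 weeks (log2 change -1.15, adjusted p = 0.00467). Cidea, a lipid droplet protein typical of brown fat, averaged 2091 ± 371 TPM at 8 weeks and 1619 ± 82.2 TPM at 2 weeks (log2 change 0.35, adjusted p = 0.0154). Dio2, which makes active thyroid hormone, averaged 105 ± 54.7 TPM at 8 weeks and 45.4 ± 23.9 TPM at 2 weeks and did not pass (log2 change 1.03, SE 0.60, adjusted p = 0.224). Neither did the identity factor Prdm16 (0.07, SE 0.18, adjusted p = 0.810) or the coactivator Ppargc1a (0.09, SE 0.45, adjusted p = 0.904). The sign of both turned under other scalings.

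The adrenergic list had 1 of 19 higher and 3 lower, and 1 and 6 after rescaling. The higher count was 0 without library 5 of 2 weeks or library 2 of 8 weeks, and 3 without library 3 of 8 weeks. Adrb3 was at 21.6, 96.1, 87.3, 33.1, 59.7, 25.1 and 99.1 TPM at 8 weeks and at 174, 90.2, 121, 98.3 and 153 TPM at 2 weeks. Libraries 2 and 7 of 8 weeks lay inside the 2 week range and the other 5 below it (log2 change -1.25, SE 0.33, adjusted p = 0.00517). The protein kinase A subunits Prkar2b and Prkaca fell by 0.61 (adjusted p = 0.000663) and 0.45 (adjusted p = 0.00298). Prkar2b averaged 417 ± 68.7 TPM at 8 weeks and 631 ± 76.0 TPM at 2 weeks without overlap.

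Lipid droplet and lipolysis genes rose in 6 of 18 cases and fell in 3, of which 1 was left without library 1 of 8 weeks. Pnpla2, adipose triglyceride lipase, which takes the first fatty acid off a triglyceride, was at 2022, 2073, 1240.3, 1745, 2254, 1966 and 1700.2 TPM at 8 weeks and at 1088, 1240.0, 1346, 1274 and 1175 TPM at 2 weeks. Library 3 lay inside the 2 week range and the other 6 above it (log2 change 0.58, SE 0.12, adjusted p = 0.000252, and 0.68 without library 3). Its activator Abhd5 rose by 0.66 (adjusted p = 0.00713), and the droplet proteins Cidec by 0.56, Plin5 by 0.47 and Fabp4, a fatty acid carrier, by 0.47. Hormone-sensitive lipase (Lipe) averaged 422 ± 35.3 TPM at 8 weeks and 422 ± 28.6 TPM at 2 weeks and did not pass (adjusted p = 0.988). The falls were those of Mgll (-0.43), the lipase of the last step, Plin1 (-0.39) and the glycerol channel Aqp7, which averaged 44.5 ± 5.41 TPM at 8 weeks and 75.2 ± 10.1 TPM at 2 weeks without overlap (log2 change -0.74, adjusted p = 6.35e-06).

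Fatty acid and triglyceride synthesis changed in 2 of 21 cases, Lpin1 higher (0.96, adjusted p = 0.000911) and Acss2 lower (-1.08, adjusted p = 0.0219). Acss2 lost its call without library 1 of 2 weeks (0.0799), library 4 of 2 weeks (0.0560) or library 6 of 8 weeks (0.0598). Fasn averaged 3567 ± 1152 TPM at 8 weeks and 3914 ± 332 TPM at 2 weeks (adjusted p = 0.494), and Scd1 averaged 8922 ± 2402 TPM at 8 weeks and 6552 ± 494 TPM at 2 weeks (adjusted p = 0.276), and neither passed. Without library 5 of 8 weeks 3 genes of synthesis were lower. Lipid uptake rose in 5 of 15 cases and fell in 1. Lrp1, a receptor for remnant particles, averaged 76.5 ± 33.1 TPM at 8 weeks and 21.2 ± 1.34 TPM at 2 weeks (log2 change 1.64, adjusted p = 7.53e-07), Apoe rose by 1.21 and lipoprotein lipase (Lpl) by 0.64. The fall was that of Angptl4, an inhibitor of lipoprotein lipase (-1.01, adjusted p = 0.0293), and it was lost in 5 of the 12 fits without a single library, among them that without library 1 of 2 weeks (0.0742). The uptake count was 2 without library 1 of 2 weeks, library 5 of 2 weeks or library 6 of 8 weeks.

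Few genes of the mitochondrion passed the test on TPM, and more of the nuclear ones were lower under other scalings. All genes tested also had more falls then, with 5.56% lower on TPM, 11.6% after rescaling and 17.8% with mitochondrial transcripts removed. Beside that last share, 18 of 32 nuclear genes of the respiratory chain and ATP synthase and 15 of 24 mitochondrial ribosome genes were lower. Fatty acid oxidation had 2 of 21 higher (0 without library 1 of 2 weeks) and 3 lower (1 without library 5 of 2 weeks), and the tricarboxylic acid cycle 3 of 21 higher and 4 lower, with 1 and 5 after rescaling. With mitochondrial transcripts removed, where 17.8% of all genes were lower, 8 genes of fatty acid oxidation were lower and 0 higher, and 9 of the cycle were lower and 1 higher. Citrate synthase (Cs) averaged 847 ± 126 TPM at 8 weeks and 1090.0 ± 71.9 TPM at 2 weeks (log2 change -0.37, adjusted p = 0.000860). The 2 partner subunits of succinyl-CoA ligase went apart, with Suclg1 lower by -0.35 (adjusted p = 0.00197) and Suclg2 higher by 0.41 (adjusted p = 2.1e-05). Of 32 nuclear genes of the respiratory chain and ATP synthase, 0 passed in limma on TPM (1 at an unadjusted p under 0.05), 5 were lower after rescaling and 18 were lower once mitochondrial transcripts were removed. Of the 13 protein-coding transcripts of the mitochondrial genome 3 fell, with a median of -0.17, and 0 did after rescaling. That count was 1 in 6 of the 12 fits that left out a single CAC library, the fit without library 2 of 8 weeks among them, and 5 without library 3 of 8 weeks. Mitochondrial ribosome genes fell in 2 of 24 cases, in 7 after rescaling and in 15 with mitochondrial transcripts removed. Without library 5 of 2 weeks 0 of them fell. Cytosolic ribosome genes rose in 3 of 30 cases, a share below the 15% of all genes, with a median of 0.26. With mitochondrial transcripts removed 0 of them were higher and 1 lower. The 3 cytosolic calls, Rps6, Rps9 and Rpl19, were each lost without libraries such as library 2 of 8 weeks (adjusted p = 0.134, 0.126 and 0.106). Without library 3 of 8 weeks 12 members were called, where 23.5% of all genes were higher.

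Insulin and growth factor genes rose in 7 of 18 cases and fell in 2, with a median of 0.42. Irs2, the docking protein of the insulin receptor, averaged 49.7 ± 38.8 TPM at 8 weeks and 8.32 ± 9.13 TPM at 2 weeks (log2 change 2.28, adjusted p = 0.0104), and the carrier Igfbp3 averaged 60.0 ± 49.9 TPM at 8 weeks and 9.58 ± 1.202 TPM at 2 weeks (log2 change 2.15, adjusted p = 5.53e-05). Grb14, an inhibitor of the insulin receptor, averaged 2.53 ± 0.993 TPM at 8 weeks and 8.13 ± 0.936 TPM at 2 weeks without overlap (log2 change -1.42, adjusted p = 2.51e-07), and Igfbp5 fell by 1.203. Glucose uptake and glycolysis changed in 3 of 22 cases and branched-chain amino acid breakdown in 2 of 18. Hibch of valine breakdown rose by 0.41 (adjusted p = 0.000126). Cholesterol synthesis rose in 2 of 19 cases, Cyp51 by 1.32 and Fdft1 by 1.13, and in 4 without library 1 of 8 weeks. The glycolysis and amino acid counts also moved, with 0 rises in glycolysis in place of 2 without library 1, 2, 3 or 5 of 2 weeks or library 1 or 6 of 8 weeks, and rises in amino acid breakdown reaching 4 without library 3 of 8 weeks.

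Secreted factors of fat were divided, with 7 of 17 higher and 5 lower, and 4 were higher without library 4 of 2 weeks or library 4 of 8 weeks. Leptin (Lep) averaged 6.67 ± 4.85 TPM at 8 weeks and 20.1 ± 12.3 TPM at 2 weeks (log2 change -1.72, adjusted p = 0.00918), and the retinol carrier Rbp4 averaged 139 ± 85.4 TPM at 8 weeks and 364 ± 35.2 TPM at 2 weeks without overlap (log2 change -1.57, adjusted p = 6.9e-06). Apelin (Apln) fell by 1.42. Angiotensinogen (Agt) rose by 1.56, Bmp8b by 1.08, Nampt by 0.86, Rarres2, chemerin, by 0.65, Fgf21 by 0.61 and Nrg4 by 0.42. Adiponectin (Adipoq) averaged 1295 ± 234 TPM at 8 weeks and 1089.7 ± 58.9 TPM at 2 weeks and did not pass (log2 change 0.23, adjusted p = 0.159).

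Lists of protein folding, breakdown and recycling had more rises than falls on TPM. The unfolded protein response list rose in 8 of 18 cases with 0 lower. Xbp1, whose spliced form drives it, averaged 83.6 ± 27.0 TPM at 8 weeks and 39.2 ± 7.82 TPM at 2 weeks (log2 change 1.03, adjusted p = 0.000439), and the chaperone Hspa5 rose by 0.40. The lysosome rose in 12 of 22 cases, with cathepsins S (Ctss, 1.48), L (Ctsl, 0.84) and B (Ctsb, 0.62). Autophagy and FOXO targets rose in 8 of 22 cases. Map1lc3b, the LC3 protein of the autophagosome, averaged 133 ± 37.2 TPM at 8 weeks and 66.9 ± 5.84 TPM at 2 weeks without overlap (log2 change 0.93, adjusted p = 1.54e-07), and Gabarapl1 (0.82), Bnip3 (0.98) and Sqstm1 (0.48) rose. The proteasome rose in 10 of 23 cases, all by small amounts, with Psmc1, an ATPase of its cap, and Psma6 of its core at 0.50 the highest. These counts moved with single libraries: the unfolded protein list had 14 and the proteasome 16 without library 3 of 8 weeks, and 5 and 4 without library 5 of 2 weeks or library 6 of 8 weeks. After removing mitochondrial transcripts the counts were 5 for the unfolded protein list, with 1 lower, 9 for the lysosome, 6 for autophagy, with 2 lower, and 3 for the proteasome. Among all genes then tested, 8.71% were higher and 17.8% lower, while without library 3 of 8 weeks 23.5% were higher. The integrated stress response had 4 of 14 higher and 1 lower, and 4 each way after rescaling. Its higher count was 2 without library 2 of 2 weeks, library 2 of 8 weeks or library 4 of 8 weeks. Ppp1r15a, which restores translation, rose by 1.21, and Phgdh of serine synthesis fell by 1.36.

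The extracellular matrix was the list with the most falls on TPM and after rescaling, though not under every scaling. Of 24 genes 12 fell and 2 rose, with a median of -0.74, and 14 fell after rescaling. Col3a1, a fibrillar collagen, was at 22.9, 67.7, 46.2, 81.2, 48.9, 19.4 and 64.0 TPM at 8 weeks and at 157, 98.4, 101, 115 and 123 TPM at 2 weeks, without overlap (log2 change -1.37, SE 0.40, adjusted p = 0.0110). Col15a1, a collagen next to basement membranes, averaged 8.10 ± 3.70 TPM at 8 weeks and 26.7 ± 3.83 TPM at 2 weeks without overlap (log2 change -1.72, adjusted p = 2.45e-05). Col6a1, Col6a2 and Col6a3, which assemble into 1 fibre type, fell by 1.09, 1.26 and 1.22. Col1a1 fell by 1.29 (adjusted p = 0.0151, and 0.0517 without library 1 of 2 weeks). The 2 genes that rose were the protease inhibitor Timp1 (0.88) and the protease Adamts1 (0.86), and neither was called without library 5 of 2 weeks or library 2 of 8 weeks. Of 12 fibroblast and progenitor markers 3 fell, Dpt (-0.69), Clec3b (-0.68) and Pdgfrb (-0.45), and 1 rose, Ly6a (0.64), and their sum was 369.8 to 793 TPM at 8 weeks and 445 to 711 TPM at 2 weeks. Without library 1 of 2 weeks 1 of these markers fell. The part of fibroblast number in the matrix falls was not tested.

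Other cell types gave mixed values. Of 13 endothelial markers 3 rose and 3 fell, and 1 rose in 7 of the 12 fits that left out a single CAC library. Plvap, a protein of leaky capillaries, averaged 37.7 ± 20.4 TPM at 8 weeks and 13.5 ± 2.76 TPM at 2 weeks (log2 change 1.25, adjusted p = 0.000226), while Kdr, a receptor for VEGF, averaged 20.1 ± 6.29 TPM at 8 weeks and 30.7 ± 6.10 TPM at 2 weeks (log2 change -0.62, adjusted p = 0.00636), and Aplnr fell by 1.45. Of 6 nerve and Schwann cell markers 2 fell, and Prx of Schwann cells was among them (log2 change -0.53). Of the 13 epithelial genes tested, limma called 0, and 0 had an unadjusted p under 0.05, and the sum was 84.5 to 231 TPM at 8 weeks and 69.8 to 179 TPM at 2 weeks. Among white adipocyte markers Nnat and Lep fell, while Retn averaged 323 TPM at 8 weeks and 224 TPM at 2 weeks and did not pass (log2 change 0.50, adjusted p = 0.293), and the sum of the list was 184 to 466 TPM at 8 weeks and 169.8 to 335 TPM at 2 weeks. Cell division genes changed in 2 of 7 cases, Pcna higher (0.29) and Mcm2 lower (-0.34). Leaving out most single CAC libraries ended one or both of these calls, and also 1 of the nerve calls.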

How the data were processed

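Per the labels' protocols, RNA of brown adipose tissue was extracted with Trizol and sequenced as stranded TruSeq mRNA libraries on a NovaSeq instrument. The same text mentions LLC cells and a time point that is not among these groups, so how far it applies here is uncertain. One sample number stands in the titles of both a CAC and a Con library of 4 weeks, and these were grouped by the rest of their labels. The authors deposited TPM for 47643 gene symbols in 62 libraries, with mm10 named in the submitters' processing notes. The aligner, annotation and use of strand in counting are not given in the sources used here. No 2 libraries held identical values. Depth is unknown, and the number of libraries limits the precision.

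TPM was analysed as log2(TPM + 1), which understates changes of low genes. A gene was tested if 5 or more libraries had 1 TPM or more of it (12581 genes). The means of 12 groups were fitted to all 62 libraries with limma 3.58.1 in R 4.3.3 (trended empirical Bayes, Benjamini-Hochberg adjusted p under 0.05). The method was tested on simulated data. Library measures were compared with exact permutation tests, 2-sided. Members and the 46 gene lists (34 of processes, 12 of cell types, 777 genes, 703 tested) were chosen with earlier results of these data known. The rule for naming took, among calls averaging 5 TPM or more in the higher week and leaving out predicted genes, the 12 largest changes each way and up to 4 members of each list, plus 25 fixed genes of brown fat and of its responses. Further list members stand as examples of the counts. A few of the genes that the rule took are not reported here.

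Alternatives were a pseudocount of 0.1, no filter, a filter at 5 TPM, median-of-ratios rescaling, quantile normalization, removal of mitochondrial transcripts, fitting the compared groups alone, weighting libraries, a block by replicate number, and dropping each library in turn. Combinations of these, and fits lacking certain pairs of libraries, were added after seeing the data. Positions are those of GENCODE for mm10, and promoters those of RefSeq. Figures were drawn with Python 3.11.15, pandas 2.3.3 and matplotlib 3.10.9.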

Additional observations from a re-analysis of the deposited data

Results flagged for a closer look

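Single libraries far from the rest of their group were looked for in 312 sets of values, and 29 were found. Dixon's test at the 95% level was used, on log2(TPM + 1) for genes. Chance gives 1 in 20 for independent sets. These sets share the same libraries and most of the genes were named for their change, so that rate is only a rough guide. Library 3 of CAC at 8 weeks was the low value in 16 of them and the high value in 2. Its low values were 41.9 TPM for Itih4, 391 TPM for Hp, 42.4 TPM for Serpina3n, 13.0 TPM for Cp, 181 TPM for C4b and 4.60 TPM for Prtn3. In the same library Stat3 was at 13.0 TPM, Osmr at 3.49 TPM, Fkbp5 at 5.81 TPM, Nfil3 at 6.21 TPM and Cyp2b10 at 5.47 TPM. Ccl6 was at 15.4 TPM, Cd14 at 8.81 TPM, Apoe at 334 TPM, Ctsb at 563 TPM and Gsta3 at 14.8 TPM. Its high values were 51.9 TPM for Casq1 and 7.402 TPM for Sypl2, both genes of muscle.

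Elsewhere at 8 weeks, library 5 was high for Arntl (14.9 TPM) and low for Dbp (7.84 TPM), and library 2 was high for Nnat (6.78 TPM) and Dpt (79.0 TPM). At 2 weeks, library 3 was high for Mt1 (539 TPM), Mt2 (224 TPM) and Irs2 (24.5 TPM), and library 1 for Hmox1 (13.4 TPM). Library 2 of 2 weeks was high for Phgdh (15.4 TPM), library 4 low for mt-Nd2 (18776 TPM) and library 5 low for Dbp (13.95 TPM).

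The change of CAC over 2 to 8 weeks was set against that of Con for 24 genes, and 21 differed, where 10.2% of all genes lay above and 1.42% below. The 24 were chosen for their CAC change, which is part of the difference, so this count follows largely from the choice. The differences on the log2 scale were 6.69 for Itih4, 4.43 for Cyp2b10, 4.42 for Mt2, 4.34 for Serpina3k and 4.09 for Cxcl13. They were 3.68 for Fkbp5, 3.59 for Serpina3n, 3.00 for Slc39a14, 2.70 for Prtn3 and 2.59 for C4b. On the lower side they were -4.00 for Casq1, -3.84 for Ckmt2, -3.80 for Pvalb, -3.25 for Nnat, -3.02 for Padi2 and -3.00 for Itgb1bp2. The last were -2.99 for Retnla, -2.67 for Sypl2, -2.59 for Fndc5, -2.47 for Myl1 and -1.21 for Cdkn1c.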

How the results depend on the processing

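Lower calls in CAC numbered 446 with a filter at 5 TPM, 1457 after median-of-ratios rescaling and 1671 after quantile normalization, against 699. With mitochondrial transcripts removed 1095 genes were higher and 2243 lower. A fit of only the 2 CAC groups gave 1170 calls (793 higher, 377 lower), the same fit with rescaling 1643 (881 higher), and library weights 4242 (3205 higher). The replicate number as a block gave 387 (234 higher, 153 lower) in CAC, 1090 in Con, 1 in NCAC and 435 (364 higher, 71 lower) for the difference between the CAC and Con changes. Same-numbered libraries deviated with correlations from -0.21 to 0.38 over 5 pairs, and 2 of 5 libraries of 8 weeks correlated best with their own number. So few pairs cannot settle whether the numbers pair the samples.

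The Con count of 4 was 29 with a pseudocount of 0.1, 56 with the filter at 5 TPM, 17 with mitochondrial transcripts removed, 1299 with only its groups, 211 with that and rescaling, 4066 with weights, 675 without Con libraries 3 and 4 of 4 weeks, and 0 without a filter, after rescaling or after quantile normalization. Weights gave 6 in NCAC. The difference between arms had 118 lower with the filter at 5 TPM, 883 calls (486 higher, 397 lower) after rescaling, 614 higher and 423 lower after quantile normalization, 265 higher and 833 lower with mitochondrial transcripts removed, and 4999 (4402 higher, 597 lower) with weights. It had 796 (356 higher, 440 lower) with rescaling and only the groups compared, 2220 (1934 higher, 286 lower) without the 2 Con libraries of 4 weeks, and 2030 higher without library 3 of CAC at 8 weeks and library 1 of CAC at 2 weeks together. The cause of these shifts was not tested.

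With each library left out, CAC calls ran from 1916 to 3823 (1322 to 2959 higher, 420 to 864 lower), Con calls from 0 to 207, NCAC calls stayed at 0, and the difference ran from 857 to 2825 (710 to 2543 higher, 68 to 282 lower). The fewest were reached without library 1 of CAC at 2 weeks for all and lower CAC calls, without library 5 of CAC at 2 weeks for higher ones, without library 1 of Con at 8 weeks for all and higher calls of the difference, and without library 1 of CAC at 2 weeks for its lower ones. The mitochondrial share differed by -6.13 to -4.25 percentage points, the share of the top 10 genes by -5.68 to -4.03, the muscle sum by -6345 to -2333 TPM (past the threshold in 3 of 12), the epithelial sum by 10.7 to 40.8 TPM and the number of genes at 1 TPM by 1.32 to 133. With mitochondrial transcripts removed the number of genes differed by -104.8 and the top 10 share by 2.06, and by medians the number of genes differed by -13 and the muscle sum by -3520.0 TPM (adjusted p = 0.0547).

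Of 154 named genes, 84 lost their call in CAC with the replicate number as a block. In a fit of only the groups compared 42 did, and 36 with rescaling as well. The number was 20 with mitochondrial transcripts removed, 17 without a filter, 10 after quantile normalization, 9 after rescaling and 1 with weights. Cidea lost its call in 5 of 24 settings, none of them a single left-out library. Of the named genes, uncalled ones alone changed sign. Prdm16 was at -0.0053 after rescaling, alone or with only the groups compared, at -0.012 after quantile normalization, at -0.074 with mitochondrial transcripts removed, at -0.00021 with weights and between -0.037 and 0.22 without single libraries. Ppargc1a was at -0.032 after quantile normalization, -0.066 with mitochondrial transcripts removed, -0.019 under the block, and -0.21 to 0.30 without single libraries. Lipe was at 0.041 under the block and -0.032 to 0.031 without single libraries, and Arntl at -0.66 to 0.014. Depth is unknown, so limits set by counting could not be computed.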

Other observations

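At 4 weeks, library 2 of CAC had 812 TPM of Itih4 and 8995 TPM of Hp, the highest of the 5 libraries for both.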
